A study of Mus musculus with 12 samples.

Results

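Liver tumours of F2 males of an arsenite line were compared with non-tumour liver of F2 males of a control line, using 6 of the 12 arrays of the study, 3 in each group. All mice were C3H/HeN males aged about 74 weeks. In the arsenite line, F0 dams were given sodium arsenite at 85 ppm in their drinking water between days 8 and 18 of pregnancy. Dams of the control line drank tap water, and F1 mice, which were mated at 10 weeks, and F2 mice drank no arsenite. The other 6 arrays, non-tumour liver and normal liver of the arsenite line, entered the fit and serve here as reference. The members were taken by their sample titles. Tumour and control samples differ in tissue and in ancestral exposure at once, so the effects of tissue and of ancestral exposure cannot be told apart in this comparison. The tumour arrays were on a slide of their own, so slide and group cannot be told apart either. Control-line tumours were not analysed here. The labels do not say whether the control livers held tumours elsewhere. They number the samples of a group but do not say which of them share a mouse, so the p-values measure the spread between numbered samples.

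Male C3H mice are known for liver tumours that arise without treatment and often carry activating mutations of Ras family genes. Hepatocytes carry out urea synthesis, bile acid synthesis, drug oxidation and secretion of serum proteins, and divide these tasks along the lobule: cells around the central vein respond to Wnt signals and make glutamine, those around the portal vein make urea and glucose. In male mice, pulses of growth hormone keep a further set of liver genes at a male level. Hepatocellular tumours are known to lose parts of these programmes and to switch on genes of the fetal liver and of the cell cycle.

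Signals are given as the log2 of the processed Cy3 intensity relative to the 75th percentile of the array, so 0 is the signal at that percentile, and differences are tumour mean minus control mean, each with its SE, the standard error of the fitted difference. A gene is said to have risen or fallen where its limma p, adjusted by Benjamini-Hochberg over the 18100 genes tested, was under 0.05. All 6 arrays had no saturated spot, and 42.5% to 46.9% of their spots were well above background. Log2 values of a tumour and a control array correlated at 0.907 to 0.932 across genes, which are not independent replicates, whereas the tumours correlated with each other at 0.982 to 0.987 and the control arrays at 0.989 to 0.993. The tumours were also the more varied group: 471 genes had an SD over 1 log2 unit among the tumours and 174 among the controls. The hepatocyte markers albumin (Alb) and Hnf4a were well above background on every array of both groups, so neither was absent from the labelled tissue.

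Of all genes tested, 49.2% passed the test: 16.9% rose in the tumours (3054 genes) and 32.3% fell (5849). At an unadjusted p under 0.05 the share was 55.5%. The change was at least 2-fold for 1636 of the genes that rose (9.04% of all) and 1793 of those that fell (9.91%), and at least 8-fold for 369 (2.04%) and 227 (1.25%). In 56.6% of genes the 3 tumours lay wholly above or wholly below the 3 controls. The median difference over all genes was -0.15, and this shift depended on the scaling: it was 0.02 when arrays were scaled by their median and -0.01 when scaled by spike-in transcripts, where 53.7% and 52.3% of the called genes were higher instead of 34.3%. Gene lists are therefore read beside these shares. Fewer cells of a type and less RNA per cell cannot be told apart in bulk RNA. Mitosis genes, fetal and tumour markers, RAS output genes and p53 targets had the largest shares of members that rose, and male-biased genes, bile acid synthesis, cytochrome P450s and fatty acid oxidation the largest shares that fell. In these 4 rising lists, 10, 5, 2 and 2 of the members that rose passed the filter on dim signals through the tumours alone. Their rise follows from that filter. Of members detected on all tumours and on all arrays of another group, 7 of 8, 13 of 15, 9 of 10 and 10 of 13 rose.

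**Figure D1:**
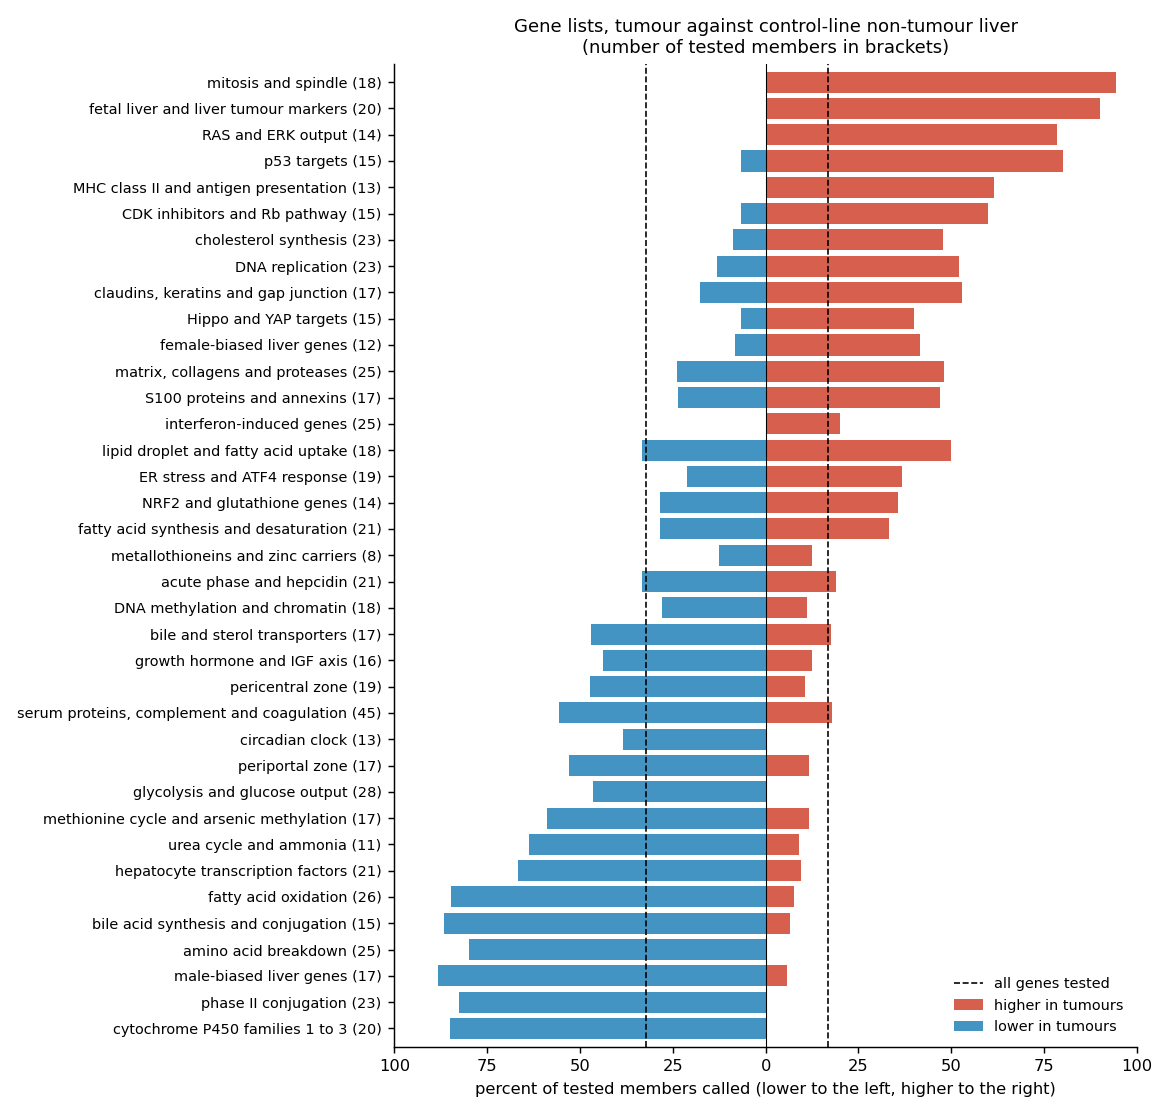
Share of tested members of each gene list called higher (bars to the right) or lower (bars to the left) in the 3 tumours against the 3 control arrays, in percent, with the number of tested members in brackets. Dashed lines mark the shares over all genes tested, 16.9% higher and 32.3% lower. The mitosis list reaches 17 of 18 members higher and the P450 list 17 of 20 lower. Bars include members that passed the filter on dim signals through the tumours alone. These were 10 of the 18 mitosis genes, 5 of 20 fetal and tumour markers, 4 of 14 RAS output genes and 2 of 15 p53 targets.

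Markers of fetal liver and of liver tumours rose in large part. Of 25 listed markers, 20 were tested, 18 of these rose and none fell, with a median difference of 6.75 against -0.15 over all genes. Of the 20, 5 passed the filter on dim signals through the tumours alone, so their rise follows from that filter, and 13 of the other 15 rose. With only probes detected on all 12 arrays, 7 of 9 markers rose and the median was 2.48. Igf2, Igf2bp1, Igf2bp3, Dlk1 and Epcam did not pass the filter in any group.

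Afp encodes alpha-fetoprotein, the serum protein of the fetal liver (chromosome 5, probe 90937781 to 90937840, mm9). Its log2 signal was 9.12, 7.75 and 6.80 in the tumours and -3.93, -3.47 and -2.37 in the controls, of which 1 array was well above background. The groups lay far apart, with tumour 1 the highest, and the difference was 11.15 ± 0.52 (SE; limma adjusted p = 1.75e-07). The control signals lay near background, so no fold is given. H19, an imprinted long noncoding RNA of fetal tissues (chromosome 7, probe 149761492 to 149761551), gave 5.81, 7.22 and 6.88 against -5.12, -2.93 and -2.98, and no control array was well above background. It was at least 766-fold higher. Gpc3, a heparan sulphate proteoglycan of the cell surface (chromosome X, probe 49625740 to 49625799), gave 5.26, 4.91 and 4.38 against -3.00, -3.46 and -3.36. Gpc3 was thus also undetected in the controls and at least 226-fold higher in the tumours. For genes undetected in the controls, a bound is given without a p. The filter on dim signals may have kept them through the tumours alone.

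Other large rises followed. Akr1c18, which inactivates progesterone (chromosome 13, probe 4131895 to 4131954), gave 6.29, 6.85 and 6.72 against -4.47, -4.18 and -3.14, at least 770-fold higher. The tumours differed little among themselves here, and no control array was above background. Further large rises were those of Tspan8 by 8.69, Ly6d by 8.64, the trefoil factor Tff3 by 8.64, the protease inhibitor Slpi by 8.34 and the trypsin inhibitor Spink1 by 8.17. Among stem and progenitor cell markers, Prom1 rose by 6.99 and Cd24a by 2.43, whereas Spp1, with -0.01, 0.61 and -0.32 against -0.63, -0.56 and -0.57, did not pass the test (adjusted p = 0.154). By the rule of largest difference, genes outside the list were named too: Erich4 was at least 236-fold higher, Gldn, which organises the node of myelinated axons, at least 159-fold, the neuronal kinesin Kif5c at least 125-fold, Sult2a6 at least 108-fold and the lipid droplet protein Cidea at least 105-fold. Sult2a6 has near-identical paralogs, and how their signals divide is uncertain.

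**Figure D2:**
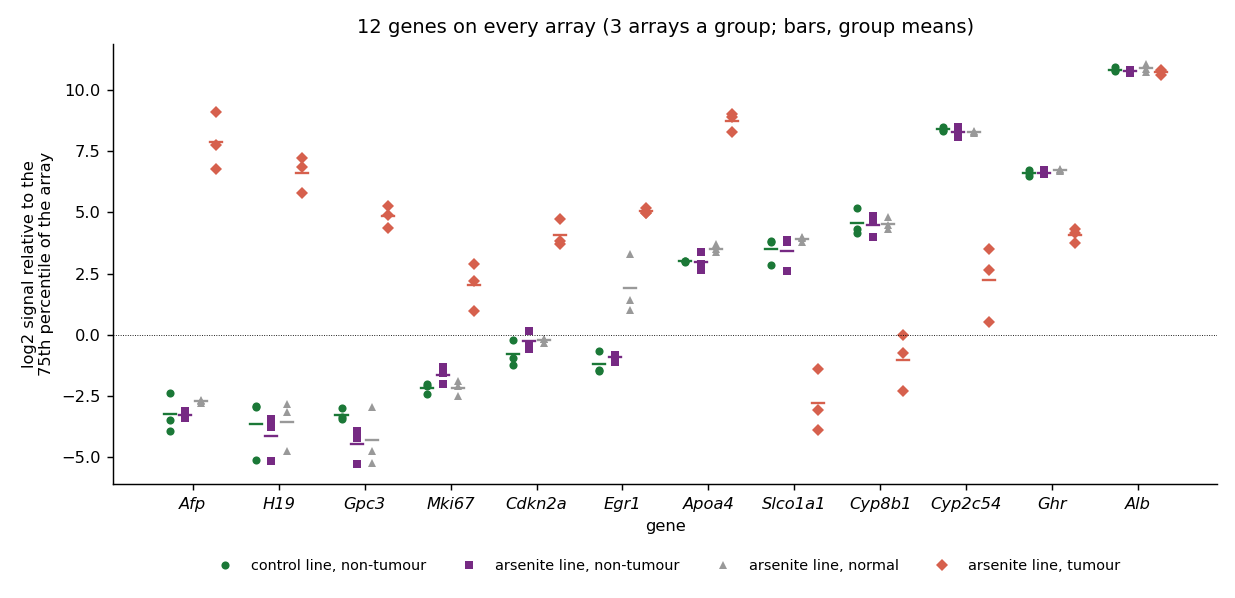
Log2 signal relative to the 75th percentile of the array for 12 genes on each of the 12 arrays, with 3 arrays in each group and a bar at each group mean. Afp, H19, Gpc3, Mki67, Cdkn2a, Egr1 and Apoa4 lie higher in all 3 tumours than on any other array, Slco1a1, Cyp8b1, Cyp2c54 and Ghr lie lower, and Alb overlaps.

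Genes that drive mitosis rose nearly as a block. Of 25 listed genes, 18 were tested and 17 of them rose, with a median difference of 3.80, or 3.43 when the 9 genes undetected in the controls are set at their lower bound. Of the 18, 10 passed only through the tumours. Of the other 8, 7 rose, and Tpx2, a spindle assembly factor, differed by 0.05 ± 0.25. Its result depends on the probe: over the mean of its probes Tpx2 was 1.89 higher (adjusted p = 0.000308), and all 18 tested members rose. Where signals well above background on all 12 arrays were required, 4 members were tested and all 4 rose.

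Promoter sequences of 3 of these genes, and of 1 replication gene, are shown because the lists differ in the known cell cycle elements that their promoters hold. The genes were taken by largest rise among those that rose and held the element in the stretch shown. That element was the homology element for mitosis genes and the E2F motif for the replication gene. These sequences therefore hold their element by selection. They run from 150 bases before to 30 after the annotated start (RefSeq, GRCm38.p6), with matches in capitals: the cell cycle homology element, the CCAAT box and, in Mcm5, the E2F motif on the other strand. The positions are chr7:80294301-80294480 (plus strand) for Prc1, chr7:135716350-135716529 (minus) for Mki67, chr4:118437314-118437493 (minus) for Cdc20 and chr8:75109359-75109538 (plus) for Mcm5.
Prc1: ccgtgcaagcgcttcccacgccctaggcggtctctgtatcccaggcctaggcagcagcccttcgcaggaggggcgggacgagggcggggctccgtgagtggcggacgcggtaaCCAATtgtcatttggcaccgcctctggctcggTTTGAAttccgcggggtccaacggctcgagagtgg
Mki67: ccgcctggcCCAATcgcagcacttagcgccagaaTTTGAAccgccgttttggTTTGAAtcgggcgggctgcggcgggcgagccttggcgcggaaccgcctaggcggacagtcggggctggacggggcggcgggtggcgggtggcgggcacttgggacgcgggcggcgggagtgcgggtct
Cdc20: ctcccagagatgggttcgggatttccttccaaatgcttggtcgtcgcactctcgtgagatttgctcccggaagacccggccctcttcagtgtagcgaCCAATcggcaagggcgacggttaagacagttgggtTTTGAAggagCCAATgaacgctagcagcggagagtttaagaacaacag
Mcm5: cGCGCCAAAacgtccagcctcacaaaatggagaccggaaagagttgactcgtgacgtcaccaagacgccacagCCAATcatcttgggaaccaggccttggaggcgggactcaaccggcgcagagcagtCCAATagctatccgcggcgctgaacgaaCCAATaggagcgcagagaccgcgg

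Over the windows from 250 bases before to 50 after the start, searched on both strands, the homology element (TTTGAA, or in its second form TTCGAA) occurred in 16 of 20 mitosis genes with an entry (80.0%) and in 21.7% of the promoters of 27025 genes. CCAAT occurred in 17 of the 20 (85.0%) against 41.1% of all promoters. Of the DNA replication genes, 3 of 21 held the homology element (14.3%), and 7 of 21 (33.3%) held the E2F motif TTTNGCGC, which 1.57% of all promoters and 1 of the 20 mitosis promoters held. CCAAT occurred in 13 of these 21 (61.9%). Matches of different motifs may share letters, and the difference between the lists was not tested. These counts describe letters in a window and say nothing of binding in these livers.

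Prc1, which bundles the microtubules of the dividing spindle, gave 1.27, 1.94 and -0.34 in the tumours and -3.53, -3.18 and -4.23 in the controls. Mki67, the proliferation antigen, gave 2.19, 2.90 and 0.98 against -2.09, -2.04 and -2.42 and rose by 4.21 ± 0.40 (adjusted p = 1.78e-05). In both genes the groups were far apart, and tumour 3 was the lowest tumour. The mitotic kinase Plk1 was at least 20-fold higher (1.75, 2.22 and 0.09 against -3.76, -4.09 and -3.54). Cdc20, which activates the anaphase ligase, rose by 3.90 and the chromosomal passenger Cdca8 by 2.74.

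DNA replication genes moved less and in both directions. Of 23 tested, of which 3 passed only through the tumours, 12 rose and 3 fell, with a median of 0.48. Of those 3, 2 rose, and of the other 20, 10 rose and 3 fell. The cyclin Ccne1 rose by 4.03, the helicase subunits Mcm2 by 2.30 and Mcm5 by 2.11, and the ribonucleotide reductase subunit Rrm2 by 2.46. Uhrf1, which guides DNA methylation to new strands, was at least 7.34-fold higher. Pcna, the polymerase clamp, gave 3.32, 3.43 and 3.08 against 3.37, 3.28 and 3.28, and the groups overlapped. Against the list, Mcm10 fell by 3.57 ± 0.33 (2.09, 2.62 and 2.69 against 5.90, 5.49 and 6.70; adjusted p = 1.43e-05), the thymidine kinase Tk1 fell by 1.41 and Gins1 fell by 0.88. Mcm10 and Gins1 were each read by 1 probe.

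Tumours differed among themselves in these genes. Tumour 2 was the highest of the 3 in 17 of 18 mitosis genes and tumour 3 the lowest in 17, whereas over all genes tumour 2 was the highest in 37.9% and tumour 3 the lowest in 31.0%. The median distance of the mitosis genes from the control mean was 4.19, 4.73 and 2.52 in tumours 1, 2 and 3. Every tumour lay above every control in 17 of the 18 genes, but 10 of the 18 passed the filter through the tumours alone. Over all genes, the tumours lay wholly above or wholly below the controls in 56.6%.

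**Figure D3:**
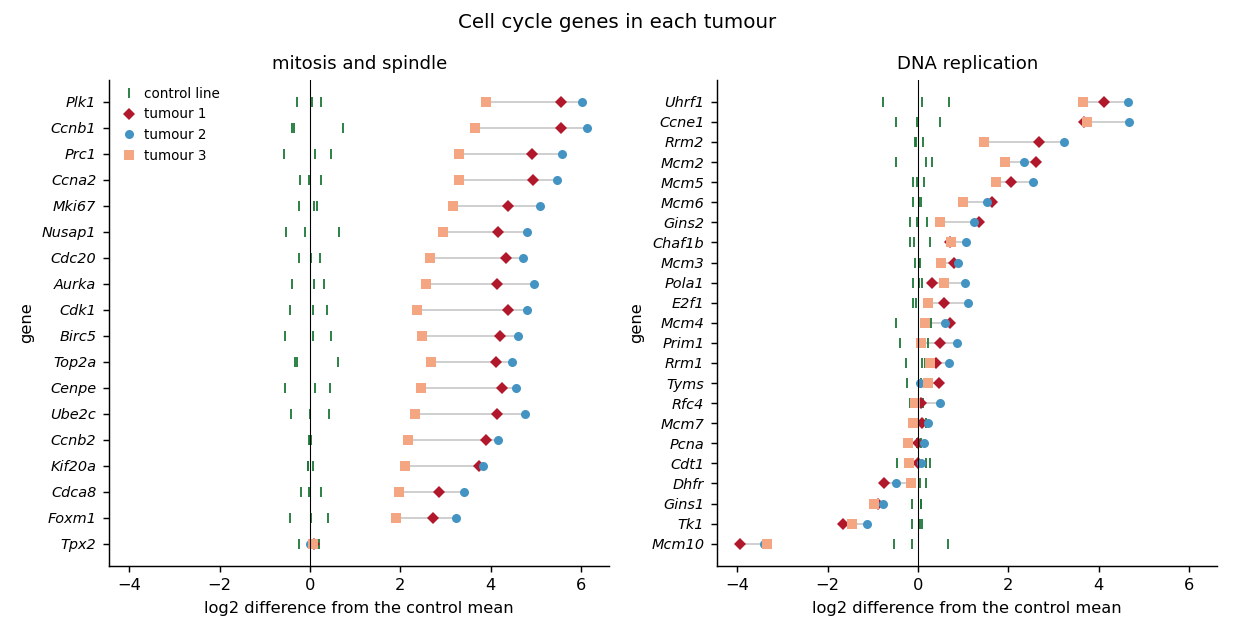
Log2 difference of each tumour from the mean of the 3 control arrays (x axis) for the tested genes of the mitosis list (left) and the DNA replication list (right). Markers show tumours 1, 2 and 3 and ticks the control arrays. Mitosis genes other than Tpx2 lie to the right of all control ticks in the order tumour 3, tumour 1, tumour 2, whereas replication genes spread from Mcm10 on the left to Uhrf1 on the right.

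Some inhibitors of the cell cycle rose beside its drivers. In the list of CDK inhibitors and the Rb pathway, 9 of 15 genes rose and 1 fell, with a median of 1.87, or 0.35 when 3 genes undetected in the controls are set at their bound. Of the 9, 3 passed only through the tumours, so their rise follows from the filter. Of the other 12 members, 6 rose and 1 fell. Cdkn2b, the p15 inhibitor, gave 4.2, 4.9 and 4.25 against -1.61, -2.03 and -2.18 and rose by 6.39 ± 0.22 (adjusted p = 2.09e-08). Its neighbour Cdkn2a, which encodes p16 and p19ARF, gave 3.84, 4.73 and 3.71 against -0.22, -1.25 and -0.94 and rose by 4.9 ± 0.32. All tumours were thus above all controls by several log2 units in both. Cyclin D1 (Ccnd1) rose by 2.65, while Rbl2, a relative of Rb, fell by 1.33. Rb1 itself differed by 0.04 ± 0.18 and Cdkn1b, the p27 inhibitor, by -0.14 ± 0.07, and neither passed the test.

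Targets of p53 rose in 12 of 15 tested genes and fell in 1, with a median of 1.47 (1.26 with 2 genes at their bound). Of the 12, 2 passed only through the tumours, so their rise follows from the filter. Of the other 13 members, 10 rose and 1 fell. Btg2, which slows division, gave 2.61, 2.36 and 2.19 against -1.77, -2.48 and -2.47 and rose by 4.63 ± 0.23 (adjusted p = 2.43e-07). Cdkn1a, the p21 inhibitor, gave 3.13, 3.30 and 2.52 against -1.05, 0.42 and -0.76 and rose by 3.45 ± 0.43. Neither gene had a tumour within the range of the controls. Phlda3 rose by 4.56, the death genes Bax by 1.25 and Tnfrsf10b by at least 21.7-fold, and Zmat3 by 1.88. The death receptor Fas was the member that fell (by 0.33), and without tumour 2, tumour 3, control 2 or control 3 it did not pass (adjusted p = 0.0543 to 0.0850). Fas also did not pass under quantile, array-median or spike-in scaling (adjusted p = 0.129, 0.473 and 0.626), where no target fell.

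Output genes of the RAS and ERK cascade, induced by ERK or limiting it, rose in 11 of 14 and fell in none, with a median of 1.77 (1.71 with 3 genes at their bound). Of the 14, 4 passed only through the tumours, and 9 of the other 10 rose. Egr1, an immediate early transcription factor, gave 5.20, 4.98 and 4.97 against -1.44, -0.68 and -1.47 and rose by 6.25 ± 0.48 (adjusted p = 4.30e-06). The ERK phosphatase Dusp6 gave 5.78, 5.77 and 5.38 against 3.48, 3.82 and 3.48, and Dusp5 was at least 3.80-fold higher. In all of these the groups stood apart with little spread among tumours. The ETS factors Etv4 and Etv5 rose by 2.33 and 1.5, and the feedback inhibitor Spry1 by 2.49. Phlda1 (5.96, 4.45 and 3.95 against 5.48, 5.46 and 5.32) overlapped between the groups and did not pass the test.

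Male-biased liver genes fell in 15 of 17 and rose in 1, with a median of -3.50. Slco1a1, an organic anion carrier, gave -3.90, -3.10 and -1.39 against 2.84, 3.79 and 3.84 and fell by 6.29 ± 0.57 (adjusted p = 1.30e-05), with 2 of 3 tumours well above background. Elovl3, a fatty acid elongase, fell by 6.83 ± 1.21 and the steroid dehydrogenase Hsd3b5 by 6.66 ± 0.86. The lowest control lay above the highest tumour in each. Cyp4a12a and Cyp4a12b fell by 5.72 and 5.73, but the pair is nearly identical and their probes may read both. Among the rest, Ugt2b1 fell by 3.86, Nudt7 fell by 3.50 and Ugt2b38 fell by 1.40. Cyp2u1 rose by 0.78, but over the mean of its probes the difference was -0.82 (adjusted p = 0.0070), so its direction depends on the probe.

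Female-biased genes gave few values detected in both groups. Of 12 tested, 5 rose and 1 fell, with a median of 1.76, but 4 of the 5 rises were of genes that passed only through the tumours and follow from that filter. Of 7 members detected on all 12 arrays, 1 rose and none fell. Sult2a2 was at least 114-fold and Sult2a1 at least 8.26-fold higher, again with near-identical paralogs. Cyp2a4 gave 8.82, 9.48 and 9.54 against 7.90, 7.06 and 7.53 and rose by 1.79 ± 0.34 (adjusted p = 0.00158). Cyp2b9 (1.05, 2.14 and 2.16 against -0.92, 0.11 and -0.39) did not pass the test (adjusted p = 0.00557 in a fit of 6 arrays), and Cyp4a14 fell by 5.42 ± 1.99 with 1 of 3 tumours well above background. Without any 1 array other than tumour 3, Cyp4a14 did not pass (adjusted p = 0.0627 to 0.144) and no member fell. Cux2 and A1bg, further genes of the female liver, were not above background on all arrays of any group.

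Members of the growth hormone and IGF axis were split: some fell, others rose or did not pass the test. The receptor Ghr gave 4.33, 3.75 and 4.15 against 6.49, 6.75 and 6.62 and fell by 2.54 ± 0.14 (adjusted p = 5.28e-07). Igfals, which holds IGF in the circulation, fell by 4.10, the prolactin receptor Prlr fell by 2.12, Igf1 fell by 2.15 and the signal carrier Stat5b fell by 0.77. Every tumour was below every control in these 5 genes, but Stat5b did not pass under array-median or spike-in scaling (adjusted p = 0.0714 and 0.0565). In all, 7 of 16 fell and 2 rose, beside 32.3% and 16.9% of all genes. The list median was -0.18, near the -0.15 over all genes, and was 0.05 under quantile scaling. Igfbp1, an insulin-repressed IGF binding protein, gave 9.78, 9.63 and 9.47 against 1.85, 5.78 and 3.32 and rose by 5.97 ± 0.75. The spread in Igfbp1 lay in the controls. Igf2r rose by 1.13, and Jak2, Stat5a and Igf1r differed by 0.03, 0.16 and 0.07 without passing the test.

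Among transcription factors that define hepatocytes, 14 of 21 fell and 2 rose, with a median of -0.68. Onecut2 gave 0.97, 0.35 and 0.37 against 5.37, 4.81 and 5.06 and fell by 4.51 ± 0.19 (adjusted p = 9.40e-08). The xenobiotic receptor Nr1i3 (CAR) fell by 3.35, the bile acid receptor Nr1h4 (FXR) by 1.55 and their partner Rxra by 1.18. Hnf4a gave 7.40, 7.44 and 7.46 against 7.44, 7.16 and 7.20 and overlapped (difference 0.16 ± 0.12, and 0.41 with an adjusted p of 0.0291 under quantile scaling). Foxa3 rose by 1.32 and Gata6 by 0.77, while the relatives Foxa1, Foxa2 and Gata4 fell by 0.76, 0.84 and 0.99. Foxa1 did not pass without tumour 2, tumour 3, control 1 or control 3 (adjusted p = 0.0965 to 0.136). Under array-median and spike-in scaling neither Foxa1 (adjusted p = 0.16 and 0.286) nor Foxa2 (0.0784 and 0.134) passed. Scaled by the array median or by spike-in transcripts, 7 factors fell.

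Amino acid and nitrogen metabolism fell broadly. In the urea cycle list 7 of 11 fell and 1 rose, and in the list of amino acid breakdown 20 of 25 fell and none rose (medians -1.53 and -0.99). The aspartate carrier Slc25a13 gave 3.30, 3.30 and 3.46 against 5.34, 5.30 and 5.38 and fell by 1.99 ± 0.08 (adjusted p = 6.33e-08). The argininosuccinate enzymes Ass1 and Asl fell by 1.86 and 1.70, and the entry enzyme Cps1 by 2.08. Hpd, of tyrosine breakdown, fell by 3.18, tyrosine aminotransferase (Tat) by 2.52 and the kynurenine enzyme Afmid by 2.45. Glud1, which releases ammonia from glutamate, was the member that rose (by 0.64). Tdo2, the first enzyme of tryptophan breakdown, gave 3.43, 4.30 and 4.65 against 3.94, 4.38 and 4.71, and the groups overlapped.

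Methionine cycle genes supply S-adenosylmethionine, with which the liver methylates arsenic. In that list 10 of 17 fell and 2 rose, and without control 1 or without control 3, 1 rose. Mat1a, which makes S-adenosylmethionine in adult liver, fell by 2.27, the methyl acceptor enzyme Gnmt by 3.29, Ahcy by 2.71 and Cth by 2.66. Nnmt, which methylates nicotinamide, was above background on all control arrays and on no tumour, at least 12.9-fold lower. As3mt, the arsenite methyltransferase, gave 1.40, 1.75 and 1.97 against 0.63, 0.45 and 0.65 and rose by 1.13 ± 0.16 (adjusted p = 0.000238). All tumours were above all controls for As3mt, opposite to most of the list. Mat2a, the isoform of dividing cells, gave 4.86, 3.92 and 3.81 against 4.59, 4.05 and 4.21 without separation.

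Bile acid synthesis fell in 13 of 15 genes and rose in 1 (median -1.81). Cyp8b1, the sterol hydroxylase that yields cholic acid, gave -0.77, -2.31 and -0.02 against 5.17, 4.18 and 4.30 and fell by 5.58 ± 0.50 (adjusted p = 1.20e-05). Cyp7a1, the rate-limiting enzyme, fell by 5.92 ± 1.17, with 1 of 3 tumours well above background. No tumour reached the range of the controls in either gene. Akr1d1 fell by 2.52 and the conjugating enzyme Baat by 2.71, and Slc27a5 and Hsd17b4 fell by 1.53 and 1.44. Cyp39a1, an oxysterol hydroxylase, rose by 3.71 (4.34, 5.12 and 4.80 against 0.56, 2.0 and 0.58). Carriers of bile and sterols were split, with 8 of 17 lower and 3 higher (median -0.16, and 0.01 when scaled by the array median): the uptake carrier Slco2b1 fell by 4.69 and the export pump Abcb11 by 1.34, Abcb1a rose by 2.05, and the main bile acid uptake carrier Slc10a1 gave 9.47, 9.88 and 9.83 against 9.89, 9.92 and 9.85. Over the mean of its probes Slc10a1 differed by -1.66 (adjusted p = 1.95e-05).

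Drug-metabolising enzymes fell in large part. Of 20 cytochrome P450 genes of families 1 to 3, 17 fell and none rose (median -2.78). Of 23 phase II enzymes, 19 fell and none rose (median -1.30). Cyp2j5 gave -2.15, -2.42 and -2.10 against 1.55, 1.71 and 1.69 and fell by 3.87 ± 0.11 (adjusted p = 1.10e-08). Cyp2c29, Cyp3a25 and Cyp3a13 fell by 3.61, 2.20 and 1.81, and Cyp2c54 by 6.18, with near-identical Cyp2c paralogs. Gsta2, a glutathione transferase, gave 0.16, -0.35 and 0.66 against 5.31, 5.16 and 5.16 and fell by 5.05 ± 0.21 (adjusted p = 8.81e-08). The 3 tumours lay close together in Cyp2j5, and in both Cyp2j5 and Gsta2 they lay far below the controls. The acetyltransferase Nat8 fell by 6.16, Sult1b1 by 2.68 and Ugt3a2 by 2.14.

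Genes that respond to oxidants and metals did not share a direction. In the NRF2 and glutathione list, 5 of 14 rose (1 of the 5 passed only through the tumours) and 4 fell. Over all genes, 16.9% rose and 32.3% fell, so the share of the list that fell was near that of all genes. Without control 1, 2 fell. The list median was -0.03, and 0.20 under quantile scaling. G6pdx, which supplies NADPH, gave 3.58, 3.88 and 3.11 against 0.41, 0.20 and 0.02 and rose by 3.31 ± 0.18 (adjusted p = 5.16e-07), and Nfe2l2, which encodes NRF2, rose by 1.03. Gclm, of glutathione synthesis, fell by 0.98, and the NRF2 target Nqo1 fell by 2.06 ± 0.74 with 2 of 3 tumours well above background. Hmox1, heme oxygenase, fell by 0.68 ± 0.21 (2.30, 1.69 and 2.57 against 3.21, 2.75 and 2.64; adjusted p = 0.0199). Hmox1 did not pass without tumour 2 or control 1 (adjusted p = 0.0578 and 0.0737), and Nqo1 did not pass without tumour 1 or any 1 control (adjusted p = 0.0652 to 0.0985). Under quantile, array-median and spike-in scaling Hmox1 did not pass either (adjusted p = 0.0596, 0.0839 and 0.197). Metallothioneins, which bind metals and arsenite, varied most among the controls: Mt1 gave 6.33, 6.56 and 7.25 against 9.60, 8.39 and 5.20 (adjusted p = 0.437) and Mt2 4.48, 3.63 and 5.63 against 8.69, 8.11 and 3.60 (adjusted p = 0.160). Tumours thus lay inside the control range for both, but this rests on control 3. Without control 3, Mt1 was lower with a difference of -2.28 (adjusted p = 0.0405) and Mt2 with -3.82 (adjusted p = 0.00588), and 3 of 8 list members fell instead of 1. The 2 probes of Mt1 differed by -1.02 and 2.02. The zinc importer Slc39a4 rose by 2.10 and the manganese exporter Slc30a10 fell by 1.23. In the metallothionein and zinc carrier list, 1 of 8 rose and 1 fell (25% called, against 49.2% of all genes).

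Lipid genes moved in both directions, beside 16.9% of all genes that rose and 32.3% that fell. Fatty acid oxidation fell in 22 of 26 genes and rose in 2 (median -1.11). Etfdh, which passes electrons from fatty acid oxidation to the respiratory chain, gave 4.82, 4.62 and 4.71 against 6.27, 6.23 and 6.24 and fell by 1.53 ± 0.08 (adjusted p = 3.80e-07). Cpt2, Eci1 and Decr1 fell by 1.62, 1.54 and 1.24. Cpt1a, the entry step into mitochondria, rose by 0.56 and the ketone enzyme Bdh1 by 0.43. In fatty acid synthesis, 7 of 21 rose and 6 fell, and 2 of the 7 passed only through the tumours. Those that rose were the desaturases and elongases Scd2 by 6.51 ± 0.19 (6.49, 6.71 and 6.05 against -0.45, 0.05 and 0.12), Fads2 by 1.53, Fads1 by 1.32, Elovl5 by 0.56, Elovl2 by 0.75 and Elovl7 at least 19-fold, and the lipid droplet enzyme Pnpla3. Among elongases the male-biased Elovl3 fell, as given above. Elovl5 did not pass without tumour 2 (adjusted p = 0.0536). Fasn and Acaca, the synthase and carboxylase, differed by 0.54 ± 0.48 and 0.48 ± 0.20 and did not pass the test (adjusted p = 0.0198 for Acaca in a fit of 6 arrays), and Srebf1, their regulator, fell by 0.99. Among droplet and uptake genes, 9 of 18 rose and 6 fell (3 fell under quantile scaling and 2 under spike-in scaling). The shares that fell in the synthesis and droplet lists were thus near the share over all genes. Of the 9, 1 passed only through the tumours. Cidec rose by 3.80, Fabp5 by 3.32, Fabp4 by 1.56 and Hilpda by 1.69, and Plin5 fell by 1.72.

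Cholesterol synthesis leaned upward in the tumours, but the count depended on single arrays. Of 23 genes, 11 rose and 2 fell (median 0.75). Lss, which closes the sterol ring, gave 3.46, 4.23 and 3.42 against 2.07, 1.13 and 1.45 and rose by 2.15 ± 0.44 (adjusted p = 0.00244). Dhcr7, of the last steps, rose by 1.31 ± 0.31. Sqle, the squalene epoxidase, gave 6.16, 6.56 and 6.16 against 5.51, 2.83 and 4.24. All tumours stood above all controls in it, and control 1 was the control nearest to them. Without control 2, 3 genes rose and 2 fell, without control 3, 5 rose and 1 fell, and without control 1, 12 rose and 1 fell. Without tumour 1 or tumour 2, 4 genes rose, and without tumour 1 or tumour 3, 1 fell. Sqle did not pass without control 2, control 3 or any 1 tumour (adjusted p = 0.0594 to 0.119). Under spike-in scaling 7 rose and none fell. Ebp fell by 0.63. Against non-tumour liver of the arsenite line, which shares the tumour arrays, 17 rose and 2 fell (47.1% of all genes passed in that comparison), and the median difference between the non-tumour groups (arsenite minus control) was -0.55 with no member called.

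**Figure D4:**
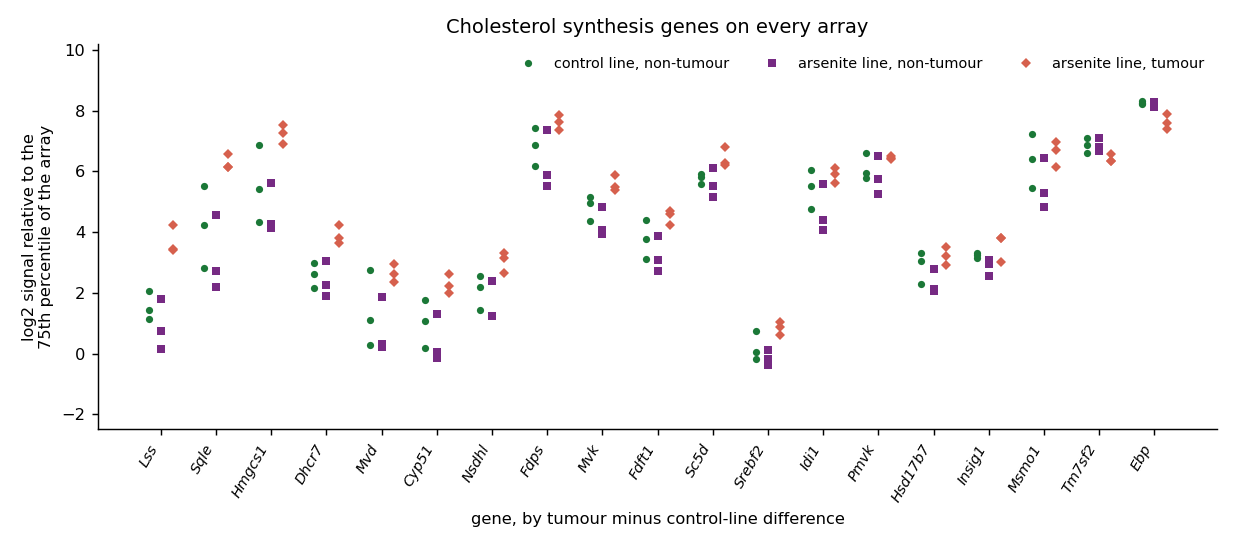
Log2 signal relative to the 75th percentile of the array for 19 of the 23 cholesterol synthesis genes on the control-line non-tumour, arsenite-line non-tumour and tumour arrays, 1 point an array, ordered by the tumour minus control difference. In Sqle the control points spread over more than 2 log2 units and the tumour points over less than 1.

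Genes of glucose output fell, and genes of glycolysis fell or did not pass the test. In the list, 13 of 28 fell and none rose (median -0.20). Fbp1 and G6pc, of glucose synthesis, fell by 1.51 and 3.28, the transporter Slc37a4 by 1.40, pyruvate carboxylase (Pcx) by 0.90 and the glycogen phosphorylase Pygl by 1.0. Lactate dehydrogenase (Ldha) gave 9.10, 9.07 and 8.91 against 8.79, 9.0 and 8.87 and overlapped. The glycolytic enzymes Aldoa, Pfkl and Pgam1 differed by 0.20, -0.10 and -0.12 and did not pass the test either. Without control 1, Aldoa passed at 0.37 (adjusted p = 0.0134), and under quantile scaling Ldha and Aldoa passed at 0.44 and 0.47 (adjusted p = 0.00601 and 0.0276). Without tumour 2 or without control 1, 1 member rose, and under quantile scaling 5 rose and 11 fell.

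Zonation separated the tumours from each other. Of 19 pericentral genes, tumour 1 was the highest tumour in 18 (against 28.4% of all genes) and tumour 2 the lowest in 17 (against 23.8%). In 12 the tumours spread over more than 2 log2 units, which 2.27% of all genes did. Glul, glutamine synthetase, the classical mark of cells at the central vein (chromosome 1, probe 155756765 to 155756824), gave 6.25, 0.41 and 1.80 in the tumours and 5.67, 5.27 and 5.54 in the controls. Tumour 1 lay above all controls and tumours 2 and 3 far below, and the mean difference of -2.67 ± 1.10 did not pass the test (adjusted p = 0.0678). Further genes that Wnt signals are known to induce had the same order. The Wnt receptor partner Lgr5 gave 2.50, -2.28 and -1.65 against -0.09, -0.26 and -0.61, and the ammonium carrier Rhbg gave 4.38, -1.08 and 0.22 against 2.25, 1.91 and 2.08. For both, tumour 1 was above and the other tumours below every control. Sp5 (1.18, -3.67 and -3.19 against -0.33, -1.06 and -1.11) and Lect2 (8.13, 4.51 and 5.0 against 6.56, 6.60 and 6.98) were ordered likewise. Without tumour 1, Glul, Lgr5, Rhbg, Sp5 and Lect2 passed the test as lower, with differences of -4.39, -1.65, -2.52, -2.60 and -1.96. Axin2 did not pass the filter, and Notum (4.53, 3.95 and 4.01 against 3.89, 4.06 and 4.10) spread little.

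Other pericentral genes were low in all 3 tumours but least so in tumour 1. Cyp2e1, an ethanol-oxidising P450, gave 8.95, 5.01 and 6.34 against 10.13, 10.07 and 10.19, and Cyp1a2 gave 1.90, -2.54 and 0.42 against 4.83, 4.91 and 5.05. Both fell, by 3.36 ± 0.73 and 5.0 ± 0.82. Over the list, 9 of 19 fell and 2 rose, Slc1a4 by 1.73 and Slc13a3 by 2.27, and without tumour 1, 15 fell (median -2.52 against -1.09). The distance of the list from the control mean had medians of 0.52, -2.83 and -1.88 in tumours 1, 2 and 3.

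Periportal genes ran the other way across the tumours. Tumour 1 was the lowest tumour in 16 of 17 (against 45.2% of all genes) and tumour 3 the highest in 16 (against 33.8%). The medians from the control mean were -1.98, -1.03 and -0.43 in tumours 1, 2 and 3. Cyp2f2 gave 2.0, 4.01 and 5.70 against 8.61, 9.05 and 8.99, and Etnppl, a phospholipid enzyme, gave -2.13, -0.96 and 1.41 against 4.91, 6.01 and 5.80. In both, no tumour reached the controls. In all, 9 of 17 fell and 2 rose (1 without tumour 2, tumour 3 or any 1 control), among them Cdh1, encoding E-cadherin, which rose by 4.95 ± 0.67 (3.48, 4.02 and 4.0 against -1.43, -1.74 and -0.19). The 6 genes with the largest spread over tumours among called genes, Susd4, Lhpp, Fam25c, Cyp7b1, Cyp1a2 and Slco1b2, all had tumour 1 highest and tumour 2 lowest, Susd4 at 3.83, -1.56 and 0.05 against 5.77, 5.97 and 6.17. Without any 1 array other than tumour 1, Lhpp did not pass (adjusted p = 0.0615 to 0.129).

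**Figure D5:**
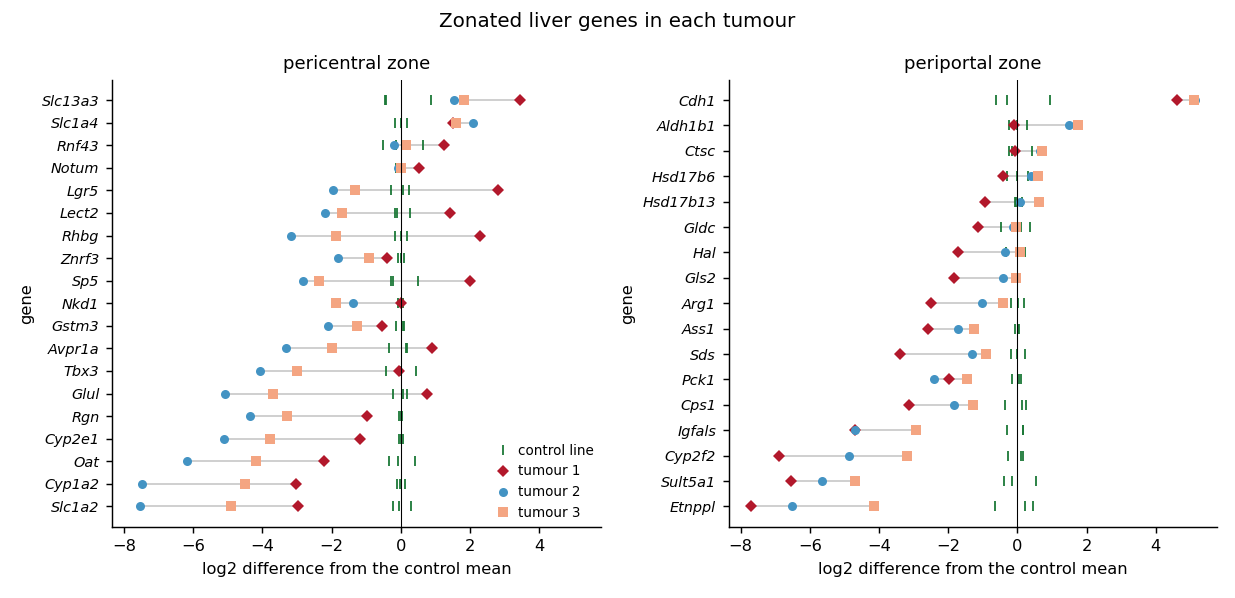
Log2 difference of each tumour from the mean of the 3 control arrays (x axis) for the tested pericentral genes (left) and periportal genes (right). Markers show tumours 1, 2 and 3 and ticks the control arrays. Tumour 1 lies farthest right in 18 of 19 pericentral genes and farthest left in 16 of 17 periportal genes.

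Secreted serum proteins changed in both directions while albumin (10.61, 10.83 and 10.78 against 10.79, 10.95 and 10.81) overlapped. Of 45 genes of serum proteins, complement and coagulation, 25 fell and 8 rose (median -0.34). Under quantile scaling 15 fell and 11 rose (median -0.04), and under spike-in scaling 11 fell and 6 rose. Over all genes, 32.3% fell and 16.9% rose. Apoa4, an apolipoprotein made mainly in the gut, gave 8.31, 9.04 and 8.91 against 3.03, 3.02 and 2.99 and rose by 5.74 ± 0.22 (adjusted p = 4.46e-08). Apom rose by 1.66 and Apoa1 by 1.05. The lectin Mbl1 fell by 2.04, the complement parts C8b and C9 by 2.62 and 2.23 and the protease inhibitor Serpina3k by 2.45. Acute phase genes were split in shares near those over all genes, with 7 of 21 lower and 4 higher. Crp fell by 1.82 and hepcidin (Hamp) by 3.71 (3.47, 4.04 and 5.82 against 7.97, 8.26 and 8.22), and Lcn2 rose by 5.23, Cd14 by 4.46 and Cp by 1.21. Without tumour 1, 12 acute phase genes fell.

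Interferon-induced genes rose in a share near that over all genes, none fell, and they were split by tumour. Of 25 tested, 5 rose (against 16.9% of all genes) and none fell (against 32.3%), so 20% were called against 49.2% of all genes. Under spike-in scaling 9 rose. With the replicate block, 9 rose in a fit of 6 arrays and 10 in a fit of 12. Tumour 3 was the highest tumour in 23 (against 33.8% of all genes) and tumour 2 the lowest in 20 (against 23.8%). The medians from the control mean were 0.66, 0.13 and 1.99 in tumours 1, 2 and 3. Isg15 gave 4.52, 4.18 and 6.40 against 3.25, 3.62 and 3.77, and Ifit3 gave 1.09, 0.65 and 2.95 against 0.41, 0.61 and 0.55. Tumour 3 thus stood apart in both, and neither passed the test, though Isg15 did under spike-in scaling (adjusted p = 0.0297). Those that rose were the chemokines Cxcl10 (by 3.08 ± 0.48) and Cxcl9 (2.28), Oas1a (2.26), Ifi44 (2.43) and the regulator Irf1 (0.84), and without tumour 3, 4 rose and the median was 0.39 instead of 0.84. Ifi44 did not pass without tumour 3, control 2 or control 3 (adjusted p = 0.0506 to 0.0821). Antigen presentation genes rose in 8 of 13 and fell in none (median 0.65), among them H2-K1 by 0.49 and Tap1 by 1.26. Of the 8, 1 passed only through the tumours. Cd74, the class II invariant chain, did not pass (4.6, 3.88 and 3.75 against 3.90, 3.38 and 3.12; adjusted p = 0.0726). Cd74 passed without tumour 3 or without control 1 (adjusted p = 0.0445 and 0.0262) and under quantile scaling (0.0421). Without control 2 or without control 3, 5 of them rose.

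Matrix and junction genes are read beside the 16.9% of all genes that rose and the 32.3% that fell. Of 25 matrix genes 12 rose and 6 fell, and 3 of the 12 passed only through the tumours. Sparc, which binds collagen, gave 9.16, 9.62 and 9.25 against 6.54, 6.94 and 6.82 and rose by 2.58 ± 0.14 (adjusted p = 6.28e-07), and the collagens Col4a1 and Col1a1 rose by 1.28 and 1.79. Tgfb2 was at least 8.04-fold higher. Decorin (Dcn) gave 3.98, 4.06 and 3.84 against 6.04, 6.31 and 6.22 and fell by 2.23 ± 0.11, and lumican (Lum) fell by 1.55. Of 17 claudin, keratin and junction genes 9 rose and 3 fell (1 fell under spike-in scaling). Of the 9, 1 passed only through the tumours. Krt23 rose by 6.65, Krt20 was at least 49.7-fold higher and Cldn7 rose by 2.25 (-0.02 over the mean of its probes). The gap junction genes Gjb1 and Gjb2 fell by 0.55 and 1.20. Gjb1 did not pass under array-median or spike-in scaling (adjusted p = 0.14 and 0.222). Annexin A2 (Anxa2) rose by 3.26 and S100a11 by 2.82, and S100a1 fell by 1.92, in a list with 8 of 17 higher and 4 lower. Of these 8, 1 passed only through the tumours.

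In the ER stress and ATF4 list 7 of 19 rose and 4 fell, and 2 of the 7 passed only through the tumours: the serine synthesis enzymes Phgdh and Psat1 rose most, Phgdh by 5.56 (3.18, 3.34 and 1.56 against -3.08, -2.44 and -3.09) and Psat1 at least 25.5-fold, whereas the chaperone Hspa5 differed by -0.08 ± 0.22 and Shmt2 fell by 1.41. Without tumour 1 or without control 3, 4 of the list rose. Of 18 genes of DNA methylation and chromatin, 2 rose and 5 fell (38.9% called, against 49.2%), and 2 fell under spike-in scaling. Of the 2 that rose, 1 passed only through the tumours. Dnmt1, the maintenance methyltransferase, gave -1.48, -1.31 and -1.55 against -1.38, -1.30 and -1.26 (adjusted p = 0.282), and Dnmt3a differed by 0.01 ± 0.21. The demethylase Tet1 fell by 2.39 ± 0.15 (-1.51, -1.19 and -1.10 against 0.91, 1.08 and 1.36). Hippo pathway genes rose in 6 of 15 and fell in 1 (none without control 3), led by Ajuba (2.76). Of the 6, 1 passed only through the tumours. The YAP targets Ccn1 and Ccn2 differed by 0.24 ± 0.23 and 0.08 ± 0.15 and did not pass. Of 13 clock genes 5 fell, among them Hlf by 1.49, and none rose (1 rose without control 2). The lists here are read beside the 16.9% of all genes that rose and the 32.3% that fell. Dbp gave 3.21, 3.76 and 3.95 against 5.85, 0.64 and 5.37, so the controls spread more than the tumours. Without control 2, Dbp passed as lower (-1.97; adjusted p = 0.00143).

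The largest falls outside these lists included genes known from other tissues. Pax2, a transcription factor of the developing kidney (chromosome 19, probe 44909895 to 44909954), gave -3.80, -3.80 and -1.02 against 5.46, 6.13 and 6.42 and fell by 8.87 ± 0.62 (adjusted p = 2.44e-06), with 1 of 3 tumours well above background. Serpina4-ps1 fell by 7.79, Lrtm1 by 7.45, Serpinb1a by 6.70, Mup9 by 6.70 and Dct, of pigment synthesis, by 6.52, while Cyp2g1 and 1810046K07Rik were at least 51.7-fold and 25.9-fold lower. In each of these genes every tumour was below every control. Mup9 has near-identical paralogs, and its probe may read others of the family.

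Markers of other liver cells are given with their summed levels, and their part in the results above was not tested. Shares over all genes were 16.9% higher and 32.3% lower. Kupffer cell and macrophage markers fell in 7 of 14 and rose in none (4 fell under quantile or spike-in scaling), and their summed linear level (relative to the 75th percentile) was 56.9 to 98.7 in the tumours and 119.9 to 200.8 in the controls. Clec4f, specific to Kupffer cells, gave 2.27, 1.65 and 2.12 against 4.28, 3.76 and 3.93. Stellate cell and fibroblast markers fell in 10 of 16 and rose in 3 (5 without tumour 3), with sums of 51.3 to 95.5 against 143.7 to 193.7, and endothelial markers fell in 6 of 18 and rose in 4, with a median of -0.06 that was 0.06 under quantile and 0.09 under spike-in scaling (110.6 to 131.6 against 142 to 152). The capillary marker Cd34 rose by 2.95 and the sinusoidal receptor Stab2 fell by 1.08. Hepatocyte markers had sums of 7244 to 8066 against 9244 to 9804, with 5 of 12 lower and 1 higher, and 4 of each under quantile scaling.

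Rarer cells had few detected markers. The summed level of bile duct markers was 280.4 to 472.8 against 91.1 to 95.7, but Tstd1 (7.98, 8.78 and 8.58 against 5.79, 5.83 and 5.65) made up most of it. Epcam and Krt7 were not above background on all arrays of any group, and Krt19 gave -2.54, -1.70 and -2.03 against -3.01, -1.74 and -1.71. The T and NK cell sum of 133.5 to 178.5 against 48.7 to 53.2 was set by Cd4 (6.92, 7.38 and 6.93 against 5.29, 5.23 and 5.40). The T cell receptor part Cd3e gave 2.02, 2.44 and 2.25 against 2.52, 2.30 and 2.35, and Cd3d, Cd8a and Trac did not pass the filter or were not on the array. Of 7 B and plasma cell markers 3 rose and 1 fell, or none without tumour 1, tumour 2, control 2 or control 3 (16.4 to 20.2 against 19.3 to 24.5). Of the 3 that rose, 1 passed only through the tumours. Of 6 neutrophil markers 2 fell (112.3 to 142.1 against 121.1 to 142), of 3 red cell markers 1 fell (50.2 to 119.5 against 103.6 to 171.9), and the adipocyte marker tested, Adrb3, fell (4.39 to 6.24 against 8.36 to 10.0).

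The design offers 1 bridge between the 2 factors, non-tumour liver of the arsenite line against non-tumour liver of the control line, on 1 shared slide. For each gene, the difference between the tumour comparison against control-line liver and that against arsenite-line liver equals this contrast. It called 1 gene of 18100 (0.00552%), Sh3bp4, whose log2 signal differed by -1.65 (arsenite line minus control line; adjusted p = 0.00973) and which was well above background on no array of either non-tumour group. At an unadjusted p under 0.05 it held 1021 genes (5.64%). No list member was called in it, and the next smallest adjusted p values were 0.169 for Cd300ld4, 0.219 for 1110051M20Rik and 0.283 for Kmt2e and 1 further gene. A p that misses the threshold does not show that the 2 non-tumour groups are alike. For Afp, non-tumour liver of the arsenite line gave -3.14, -3.40 and -3.37, for Mki67 -1.57, -2.04 and -1.31, for Ghr 6.73, 6.59 and 6.56 and for As3mt 0.27, 0.55 and 0.09. In 43.3% of all genes the 3 tumours lay wholly above or below the 9 arrays of the other groups.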

How the data were processed

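RNA from 12 liver samples was hybridised to 1-colour arrays, 3 arrays a group. Per the file headers, the deposited processed signal is a background-subtracted intensity in arbitrary units from Feature Extraction 10.7.3.1, while 12.0.3.1 stands in the submitters' processing notes. A second deposited file, the authors' linear values, was checked to be the ratio of that signal to the 75th percentile of all spots. Here log2 processed signals were centred on the 75th percentile of non-control spots, and outlier spots were left out. A probe was kept where at least 1 group had it well above background on each of its 3 arrays (24144 of 55681). Each gene was read by its brightest kept probe, and names came from the files' accessions and symbols through RefSeq. limma 3.58.1 (R 4.3.3) fitted 4 group means on 12 arrays, with eBayes and Benjamini-Hochberg adjustment over 18100 genes. Where no array of a group was well above background, folds are bounds against the lowest signal well above background. The number of arrays limits the precision.

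The text names the 12 largest rises and 12 largest falls, the 6 called genes with the widest spread over tumours, and members of 47 gene lists. The members and lists were chosen with earlier results of these data known. The limma step was tested on simulated data. Tumour and control samples come from mice of different lines, so none of them share a mouse. Same-numbered tumour and control samples deviated together at correlations of 0.092, 0.053 and -0.0001. For tumours and arsenite-line non-tumour liver these were 0.145, 0.140 and 0.229, where a block called 7124 genes against 7508 without it in a fit of 6 arrays, and 8431 against 8529 in a fit of 12. Alternatives were other scalings, filters, probe rules, fits and leaving out each array. Spike-in scaling and a replicate block over 12 arrays were chosen after seeing the data. Some members are counted in their lists and not reported singly here.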

Additional observations from a re-analysis of the deposited data

How the results depend on the processing

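The comparison of tumours with control liver called 8903 genes, 7692 to 8356 when 1 array was left out, and 4694 under spike-in scaling. The 5849 lower genes became 2931 with arrays scaled by their median, 2239 under spike-in scaling and 10110 without a filter on dim probes. With the replicate number as a block in a fit of 6 arrays, 6549 genes were called (2420 higher, 4129 lower). For non-tumour liver of the arsenite line against that of the control line, limma called 1 gene (lower): 3 with the array median, 6 without the filter, 4 in a fit of 6 arrays and 4 with array weights, and 0 with normexp background (1241 at an unadjusted p under 0.05), with probes detected on all arrays (770), with trend and robust eBayes (893), with the replicate block (1038) and under spike-in scaling (1616). With 1 array left out, 0 to 3 were called, 0 to 2 of them higher and 0 to 2 lower. Of genes higher in tumours than in arsenite-line non-tumour liver, 3101 became 1717 under spike-in scaling. Of 2820 recomputed list counts and medians, 308 moved. The medians that changed sign in some setting were those of the growth hormone, transporter, NRF2, metallothionein, endothelial, bile duct, T and NK cell and red cell lists. The cause of these changes was not tested. A slide block could not be fitted because each group lay on 1 slide. Signals near background limit dim genes to bounds. Of 211 named genes that passed the test, 13 lost their call or changed sign under spike-in scaling, 10 with the replicate block, 2 to 7 in the other settings that had any, and 3 to 7 with 1 array left out. The 13 under spike-in scaling were Adrb3, Bdh1, Cpt1a, Ebp, Elovl5, Fas, Foxa1, Foxa2, Gjb1, Hmox1, Kmt2e, Srebf1 and Stat5b. Genes whose difference changed sign, of which Cyp2u1 and Cldn7 alone passed the test as reported, were the following. Under quantile scaling, the difference was 0.047 for Alb, 0.17 for Hspa5, 0.11 for Mat2a, 0.13 for Pcna, 0.14 for Pgam1 and 0.23 for Slc10a1. Scaled by the array median, the difference was 0.066 for Alb, 0.026 for Cd3e, 0.035 for Cdkn1b, 0.042 for Dnmt1, 0.097 for Hspa5, 0.014 for Lgr5, 0.087 for Mat2a, 0.14 for Pcna, 0.071 for Pfkl, 0.053 for Pgam1 and 0.014 for Slc10a1. Scaled by the 75th percentile of detected probes, the difference was 0.056 for Alb, 0.015 for Cd3e, 0.025 for Cdkn1b, 0.032 for Dnmt1, 0.087 for Hspa5, 0.0039 for Lgr5, 0.077 for Mat2a, 0.13 for Pcna, 0.060 for Pfkl, 0.043 for Pgam1 and 0.0042 for Slc10a1. With normexp background, the difference was 0.022 for Cdkn1b, -0.23 for Igf1r, -0.13 for Krt19, 0.14 for Lgr5, 0.011 for Mat2a, 0.00055 for Pcna, 0.026 for Pfkl, 0.0014 for Pgam1 and -0.20 for Tpx2. In the authors' values, the difference was -0.00040 for Dnmt3a. Over the mean of the probes of a gene, the difference was 0.050 for Cdkn1b, -0.021 for Cldn7, -0.82 for Cyp2u1 and 0.50 for Mt1. With array weights, the difference was 1.18 for Dbp, -0.063 for Dnmt3a, -0.011 for Jak2, -0.057 for Krt19, -0.0035 for Rb1 and -0.0017 for Tpx2. Under spike-in scaling, the difference was 0.040 for Alb, 0.0089 for Cdkn1b, 0.016 for Dnmt1, 0.071 for Hspa5, 0.061 for Mat2a, 0.12 for Pcna, 0.045 for Pfkl and 0.027 for Pgam1. With 1 array left out, the difference ran from -0.020 to 0.16 for Ccn2, -1.97 to 0.63 for Dbp, -0.26 to 0.14 for Dnmt3a, -0.16 to 0.047 for Hspa5, -0.014 to 0.22 for Igf1r, -0.0087 to 0.086 for Jak2, -0.36 to 0.29 for Krt19, -1.65 to 0.74 for Lgr5, -0.42 to 0.10 for Mat2a, -0.038 to 0.25 for Notum, -0.11 to 0.065 for Pcna, -0.0058 to 0.11 for Rb1, -2.52 to 0.22 for Rhbg, -0.48 to 0.13 for Tdo2 and -0.070 to 0.16 for Tpx2.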

Other observations

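Median differences by chromosome lay near the median of all genes, -0.15. They were lowest on chromosome 8 (-0.26; tumour 1 at -0.33, tumours 2 and 3 at -0.20 and -0.23) and chromosome 13 (-0.23) and highest on chromosomes X (-0.05) and 15 (-0.06). On chromosome 16, tumour 1 was at -0.37 and tumours 2 and 3 were at -0.11 and -0.16. These are expression values, and copy number was not measured.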
